A study of Mus musculus with 10 samples.

Results

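The genes described here are 42 genes of motile cilia, listed by the known function of their proteins, with earlier results of these data known: the transcription factors that switch on ciliation, the dynein motors and their assembly factors, the radial spokes, the central pair and the other proteins that build the beating shaft of the cilium. They are 42 of the 30935 genes in a count table of 10 RNA sequencing libraries of mouse cerebral cortex, taken at postnatal day 8, and all 42 were found in it. 5 libraries came from wild-type mice (Rbfox1 +/+, replicates 2, 4, 5, 6 and 7) and the other 5 from mice in which both alleles of the Rbfox1 locus lack the element HAR.505 (Rbfox1 ΔHAR.505/ΔHAR.505, replicates 1, 3, 5, 6 and 8), called knockout below. The design text calls the samples of a genotype independent. No source used here states the sex, strain background or number of founder lines, so a difference specific to 1 line cannot be told apart from the deletion.

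Motile cilia are whip-like projections whose core, the axoneme, is a ring of microtubule doublets around a central pair of microtubules. Dynein arms fixed to each doublet walk along its neighbour and bend the cilium, and the radial spokes, the central pair and a regulatory complex between doublets time the stroke. In the brain they are carried in tufts by ependymal cells, which line the ventricles and mature after birth. The epithelium of the choroid plexus secretes cerebrospinal fluid and makes large amounts of transthyretin (Ttr). It also carries tufts of cilia, which need not have this full structure. Cortical neurons and astrocytes carry at most a single primary cilium, which lacks most of the motor proteins named here. Foxj1 is the main transcription factor of motile cilia genes, the Rfx factors bind a DNA element called the X-box in front of many cilia genes, and Mcidas starts the program of multiciliated cells.

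Because the members share these regulators, their promoters were read for the X-box. RefSeq (assembly GRCm38.p6) gave a window from 250 bases before to 50 bases after the start for 36 of the 42 genes, and the first listed window of each gene was used. One arm of the X-box, GTTGCC on either strand, was in 17 of the 36 windows (47.2%), against 12.7% of 27025 windows of all genes. The strict form with both arms, GTNNCC and GGNNAC with 2 free bases between them, was in 4 (11.1%) against 1.89%. A looser form, GTNNC and GGCAAC with 3 free bases between them, was chosen after the windows had been seen and was in 6 (16.7%) against 1.08%; it contains the arm and can overlap it. A forkhead element, TGTTTAC, was in 2 (5.56%) against 3.55%. A match is a description of the letters and not a binding site. The stretches below belong to those of the 12 members with the smallest p between genotypes (values further on) that had an X-box arm or a forkhead match before the start; they are shown so that the letters can be compared, with the arm, or the forkhead element of Ak7, in capitals, 5′ to 3′ on the strand of the gene.
Cfap44, first match: ggacgactctgtGGCAACacctcagtttag
Cfap44, second match: ggacgttgctatGGCAACcgcagtaaacgg
Spag16: ggtaactaGGCAACgcGTTGCCgtagtaac
Hydin: cactctgcggttgctgtGGCAACagatggt
Dnah7a: tcgctcctcacaGTTGCCtgccaccctctg
Ccdc153: ctgagttttccaGTTGCCtggacaacgtgc
Ak7: agtagagaaatTGTTTACccaagcagagcg
On GRCm38.p6 the Cfap44 stretches lie at chr16:44394658-44394687 and chr16:44394768-44394797 (+ strand), that of Spag16 at chr1:69826851-69826880 (+), of Hydin at chr8:110266947-110266976 (+), of Dnah7a at chr1:53706967-53706996 (- strand), of Ccdc153 at chr9:44240513-44240542 (+) and of Ak7 at chr12:105705840-105705869 (+). The looser X-box is in the second stretch of Cfap44 (GTTGCTATGGCAAC), in that of Hydin (GTTGCTGTGGCAAC) and in that of Spag16 (GTTGCCGTAGTAAC, read on the other strand), and in Spag16 both orientations of the arm stand 2 bases apart.

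Library totals ran from 16479594 to 22391943 counts. Values are given in CPM, counts scaled to a common library size with TMM factors, so 1 CPM stood for 16.3 to 22.2 counts. A list of 9 genes drawn up for cortical neurons was read beside the cortical label. All 9 had counts in every library, and they summed to 2194 to 2371 CPM in wild type against 2353 to 2528 CPM in knockout. The list includes Snap25, a gene of neurons in general, and Bcl11b, also a gene of striatal neurons, so the sum cannot check the label. Nor can it show that a sample held cortex only, and genes of striatum and choroid plexus were read as well (further on). The 42 members summed to 326 to 368 CPM in wild type, but most of them were scarce. Per kilobase of exon (union of exons in GENCODE M21, GRCm38), the highest levels in wild type were those of Rsph9 (15.3 CPM per kilobase), Rfx3 (14.2), Ccdc39 (7.85), Drc1 (7.43), Spag6l (3.84) and Foxj1 (3.20), and the lowest those of Spef2 (0.126), Dnah11 (0.123) and Mcidas (0.0305). Rfx3 alone gave 123 to 147 of the summed CPM in wild type, so the sum says little about the other members. No source used here states whether the counting used strand, and 34.2% of the exon bases of Ccdc39 lie opposite exons of Ttc14 in GENCODE M21, so its counts may hold reads of that gene; for the other members the largest such share was 17.0% (Dnaaf1, with Taf1c). Of the 50-base words in the transcripts of Dnah7a, 29.4% also occur in Dnah7b and 29.1% in Dnah7c, so the values of Dnah7a are uncertain. In bulk tissue, fewer ciliated cells in a sample and less RNA per cell cannot be told apart.

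Across the list, motile cilia genes tended to stand lower in the knockout, but 1 of them passed the test. That gene was Cfap44, which encodes a protein tethering an inner dynein to its doublet, at 7.41 ± 1.02 CPM in wild type against 4.24 ± 1.29 CPM in knockout (SD, n = 5 each). 39 of the 42 members had enough counts to be tested with edgeR's quasi-likelihood test, adjusted over 15488 genes. 1 was called lower (background 0.194% of all tested genes) and 0 were called higher (background 0.187%), where 7 had an unadjusted p under 0.05 and a lower value (background 4.52%) and 0 a higher one (background 4.19%). Log2 fold changes of knockout against wild type were below 0 for 33 of the 39, with a median of -0.30 and a range from -1.11 (Ak7) to 0.13 (Dnah5), while over all tested genes 50.9% were below 0 and the median was -0.0021. Every knockout library lay below every wild-type library for 3 members, Cfap44, Dnah11 and Dnai1 (background 0.897%), and above for 0 (background 0.93%). The filter on low counts passed 7 members that reached its minimum of 0.554 CPM in all 5 wild-type libraries but in fewer knockout libraries, and none in the reverse way, so the counts and the median over the tested members lean towards lower values in the knockout; over all 42 members without a filter the median was -0.31. Leaving out knockout replicate 3 gave 0 called members, a median of -0.26 and 4 of 41 members at an unadjusted p under 0.05 (9.76%, against 6.91% of all genes in that fit).

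**Figure D1:**
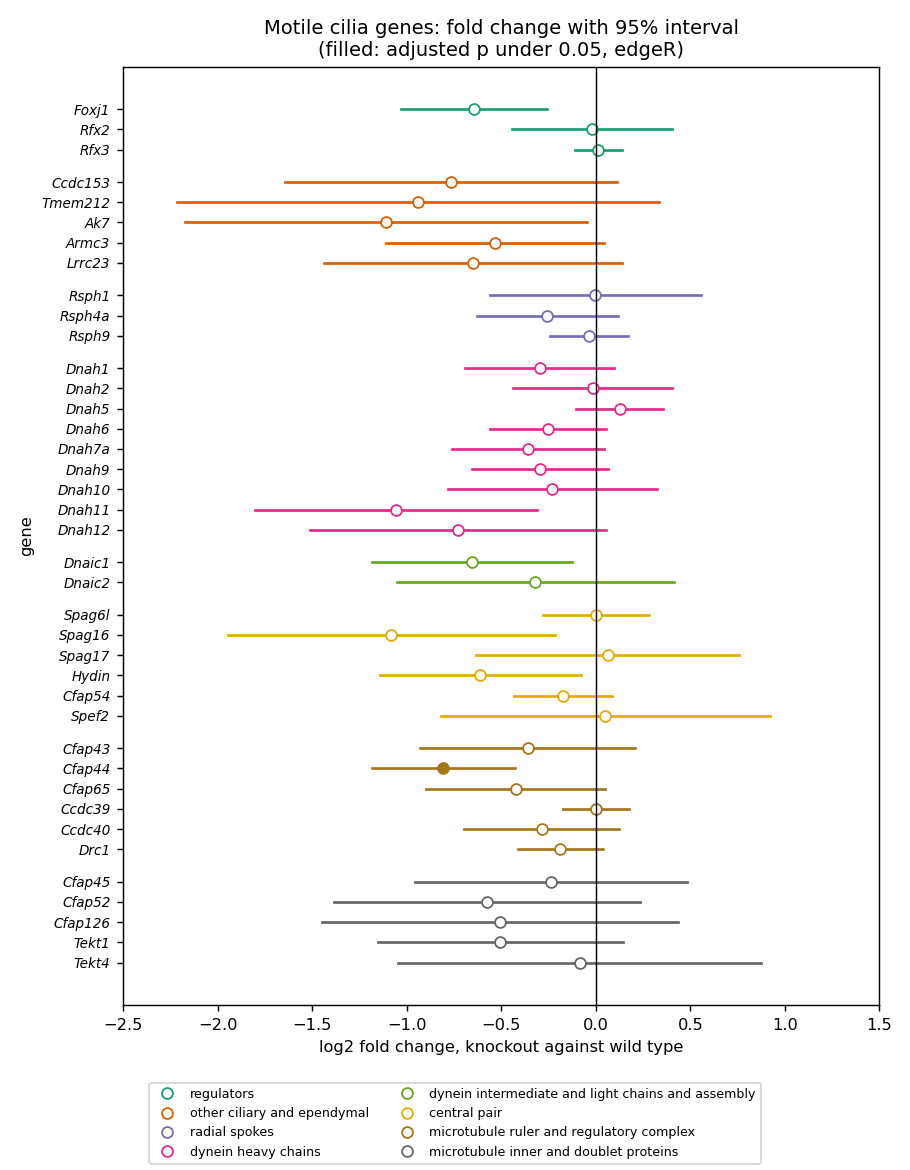
Log2 fold change of knockout against wild type (x axis) for the 39 tested motile cilia genes (y axis), grouped by role; points are edgeR estimates, lines 95% intervals, and a filled point marks an adjusted p under 0.05. Cfap44 is the filled point, at -0.81; Dnaic1 and Dnaic2 are the table's symbols for Dnai1 and Dnai2.

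Among the regulators, Foxj1 showed the lower values and the Rfx genes did not. Foxj1 was at 9.81, 8.70, 8.97, 7.82 and 6.67 CPM in the wild-type libraries in replicate order, and at 7.42, 2.76, 5.88, 4.74 and 6.10 CPM in the knockout libraries. Knockout replicate 1 lay inside the wild-type range and the 4 others below it, with replicate 3 lowest. The log2 fold change was -0.64 (SE 0.188, edgeR adjusted p = 0.184), which did not pass over all genes. Of 20 alternative fits, 1 called Foxj1, that without a filter on low counts (edgeR adjusted p = 0.0154), where calls over all genes also rose from 59 to 171. Rfx3, which also has roles outside ciliated cells and was the most abundant regulator, stood at 132 ± 8.89 CPM in wild type against 134 ± 13.9 CPM in knockout (SD, n = 5 each; log2 fold change 0.01, SE 0.0612). Its fold change had a 95% interval from 0.925 to 1.10. Rfx2 was at 3.60 to 4.40 CPM in wild type against 2.02 to 5.01 CPM in knockout (log2 fold change -0.02, SE 0.208). Mcidas, which acts briefly while cells become multiciliated, had 0 to 6 counts per library and was not tested.

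The dynein heavy chains, the motor subunits of the arms, were split between low values for 2 scarce members and small differences for the others. Dnah11, a heavy chain of the outer arm, was at 2.31, 1.40, 1.91, 1.84 and 1.22 CPM in the wild-type libraries and 0.778, 0.276, 1.04, 0.947 and 1.12 CPM in the knockout libraries. Every knockout value lay below every wild-type value, though the nearest libraries were only 0.102 CPM apart. Its log2 fold change was -1.06 (SE 0.364, edgeR adjusted p = 0.310). Dnah12, an inner-arm chain, was at 2.20, 1.88, 2.32, 2.97 and 1.37 CPM in wild type against 2.22, 0.166, 1.16, 1.34 and 1.62 CPM in knockout. Only replicate 3, with 3 counts, stood far below the others (log2 fold change -0.73, SE 0.381, adjusted p = 0.620). Dnah7a, also of the inner arm and with reads shared with its copies, was at 3.72, 4.30, 5.67, 4.54 and 3.26 CPM in wild type against 4.07, 3.20, 2.88, 3.23 and 3.36 CPM in knockout, with overlapping ranges (log2 fold change -0.36, SE 0.197, adjusted p = 0.651). Its copies Dnah7b and Dnah7c both had log2 fold changes of -0.08. Dnah5, an outer-arm chain and the heavy chain with the highest CPM, was at 14.1, 14.5, 10.7, 14.8 and 12.6 CPM in wild type against 15.7, 14.0, 15.7, 14.8 and 12.6 CPM in knockout. It was the member with the highest log2 fold change (0.13, SE 0.112), and its ranges overlapped. Dnah9 of the outer arm (-0.30) and Dnah1 (-0.30), Dnah6 (-0.25), Dnah10 (-0.23) and Dnah2 (-0.02) of the inner arm also overlapped between genotypes.

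The smaller dynein subunits and an assembly factor had few counts. Dnai1, an intermediate chain that anchors the outer arm, was at 2.78, 2.36, 2.78, 2.92 and 2.49 CPM in wild type against 1.68, 1.05, 1.71, 2.23 and 1.79 CPM in knockout. The ranges did not overlap, and replicate 3 was again lowest (log2 fold change -0.66, SE 0.259, edgeR adjusted p = 0.413). Its partner Dnai2 was at 0.944 to 2.19 CPM in wild type against 0.607 to 1.98 CPM in knockout (log2 fold change -0.32, SE 0.358). The light chain gene Dynlrb2 had 3 to 18 counts in the wild-type libraries and 0 to 10 in the knockout libraries, and Dnaaf1, needed to assemble dynein arms before they enter the cilium, 4 to 13 and 0 to 12 counts. Neither passed the filter. Both had 0 counts in knockout replicate 3, where 3 counts would be 0.166 CPM.

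The radial spokes are the arms that reach from each doublet to the central pair, and 0 of the 3 genes grouped under them were called (0 at an unadjusted edgeR p under 0.05). Lrrc23, also a radial spoke protein, was placed in the remaining group described below, and its log2 fold change was lower than that of these 3 genes. Rsph9 was at 14.95, 15.8, 13.0, 15.5 and 14.8 CPM in wild type against 14.6, 15.1, 14.3, 14.8 and 13.5 CPM in knockout (log2 fold change -0.04, SE 0.101). All 5 knockout libraries lay inside the wild-type range, replicate 3 included, and the fold change had a 95% interval from 0.845 to 1.13. Rsph1 and Rsph4a, which encode proteins of the spoke head, varied more. Rsph1 (0.00, SE 0.273) ran from 50.3% of the wild-type mean in knockout replicate 6 to 153% in replicate 5. Rsph4a (-0.26, SE 0.182) was at 45.9% of that mean in replicate 8 and inside the wild-type range in the 4 others.

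Central pair genes differed among themselves. Spag16, a structural protein of the central pair, was at 1.15, 1.02, 1.10, 1.26 and 2.14 CPM in wild type against 0.838, 0.166, 1.22, 0.501 and 0.448 CPM in knockout (log2 fold change -1.08, SE 0.423, edgeR adjusted p = 0.405). Knockout replicate 5 lay inside the wild-type range and the other 4 below it. Hydin, the large protein whose loss in mice causes hydrocephalus, was at 2.68, 3.54, 4.23, 3.06 and 3.31 CPM in wild type against 2.87, 1.27, 3.43, 1.56 and 1.90 CPM in knockout (log2 fold change -0.61, SE 0.259, adjusted p = 0.457). Its low libraries were replicates 3, 6 and 8, and replicates 1 and 5 lay inside the wild-type range. Cfap54, the gene of this group with the highest CPM but not the highest level per kilobase (1.67 CPM per kilobase in wild type, against 3.84 for Spag6l), was at 18.0, 14.3, 14.8, 18.5 and 19.4 CPM in wild type against 19.3, 11.5, 17.1, 14.99 and 12.6 CPM in knockout, with overlapping ranges (log2 fold change -0.17, SE 0.127). Spag6l (0.00, SE 0.137), Spag17 (0.06, SE 0.340) and Spef2 (0.05, SE 0.424) had fold changes near 1, with wide intervals for the last 2.

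The group of the axonemal ruler, the regulatory complex and the tether of the inner dyneins held the called gene. Cfap44 was at 8.18, 7.52, 5.79, 7.24 and 8.34 CPM in the wild-type libraries and at 5.39, 2.82, 3.24, 5.74 and 4.03 CPM in the knockout libraries. All knockout libraries lay below all wild-type libraries, but the nearest, knockout replicate 6 and wild-type replicate 5, were only 0.0511 CPM apart. Its log2 fold change was -0.81 (SE 0.184, edgeR adjusted p = 0.0410), a fold of 0.572 with a 95% interval from 0.441 to 0.742. Leaving out each library in turn kept the call in 3 of 10 fits, those without knockout replicate 1, 6 or 8; over the 10 fits the log2 fold change ran from -0.94 to -0.69 and the adjusted p from 0.0203 to 0.164. With log2 Ttr as a covariate the value was -0.45 (adjusted p = 0.940), and without knockout replicates 3, 5 and 6 it was -0.66 (adjusted p = 0.337). Cfap43, which encodes the partner of the Cfap44 protein in the tether, was at 1.91 to 3.91 CPM in wild type against 1.16 to 2.79 CPM in knockout (log2 fold change -0.36, SE 0.278, adjusted p = 0.804). Cfap65 was placed in this group when the list was drawn up, and whether its protein belongs to these structures was not checked. It was at 2.89, 2.63, 4.11, 2.83 and 3.92 CPM in wild type against 3.05, 1.99, 1.90, 2.45 and 2.80 CPM in knockout (-0.42, SE 0.232, adjusted p = 0.645). Ccdc39 and Ccdc40 form the ruler that sets the spacing along the doublet. Ccdc39 was at 29.5, 29.4, 24.5, 31.7 and 26.4 CPM in wild type against 30.4, 30.9, 28.6, 24.9 and 27.0 CPM in knockout (0.00, SE 0.0850), with the overlap with Ttc14 in mind, and Ccdc40 had -0.29 (SE 0.201). Drc1, a core subunit of the regulatory complex, had -0.19 (SE 0.110), with overlapping ranges.

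The proteins bound to the inside and surface of the doublets were scarce, at a mean of 0.768 to 1.69 CPM in wild type, and 0 of 5 were called (0 at an unadjusted p under 0.05). Tekt1, a tektin filament protein, was at 1.36, 1.61, 2.20, 1.93 and 1.32 CPM in wild type against 1.56, 0.994, 1.04, 1.17 and 1.17 CPM in knockout. 4 of its knockout libraries lay below the wild-type range (log2 fold change -0.50, SE 0.318, edgeR adjusted p = 0.713). Cfap52 (-0.57), Cfap126 (-0.51), Cfap45 (-0.24) and Tekt4 (-0.09) overlapped, and Cfap52, Cfap45 and Tekt4 passed the highest wild-type value in at least 1 knockout library.

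The remaining group holds the ependymal markers Ccdc153 and Tmem212 and 3 other ciliary genes, and 0 of its 5 genes were called, with Ak7 at an unadjusted edgeR p under 0.05. Ccdc153 was at 2.52, 1.40, 2.26, 1.62 and 1.73 CPM in wild type against 0.838, 0.0552, 1.22, 1.78 and 1.68 CPM in knockout (log2 fold change -0.77, SE 0.426, edgeR adjusted p = 0.663). Knockout replicates 6 and 8 lay inside the wild-type range, replicates 1 and 5 below it, and replicate 3 had 1 count, with an exact Poisson interval from 0.0014 to 0.308 CPM (counting error only). Ak7, an adenylate kinase of the axoneme, was at 1.99, 1.83, 3.13, 2.97 and 3.0 CPM in wild type against 0.838, 0, 1.16, 2.06 and 1.90 CPM in knockout (-1.11, SE 0.499, adjusted p = 0.538). It followed the same order of libraries at the low end: replicate 3, then replicate 1, then replicate 5. Replicate 3 had 0 counts, with an exact Poisson interval up to 0.204 CPM, and replicates 6 and 8 lay inside the wild-type range. For Ak7, 1 of 19 alternative fits gave a call, that without a filter on low counts (edgeR adjusted p = 0.0468), where calls over all genes also rose from 59 to 171. Tmem212 was at 1.05, 1.40, 1.45, 0.270 and 1.12 CPM in wild type against 1.02, 0, 0.122, 0.390 and 1.17 CPM in knockout (-0.94, SE 0.610, adjusted p = 0.731); a wild-type library was itself low. Armc3 was at 2.41, 2.63, 2.03, 2.79 and 1.63 CPM in wild type against 1.44, 1.10, 1.77, 1.39 and 2.24 CPM in knockout (-0.53, SE 0.282, adjusted p = 0.625), and Lrrc23, a radial spoke protein, had 0.276 CPM in replicate 3 against 0.857 to 2.57 CPM in the other knockout libraries and 1.66 to 3.11 CPM in wild type (-0.65, SE 0.382).

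**Figure D2:**
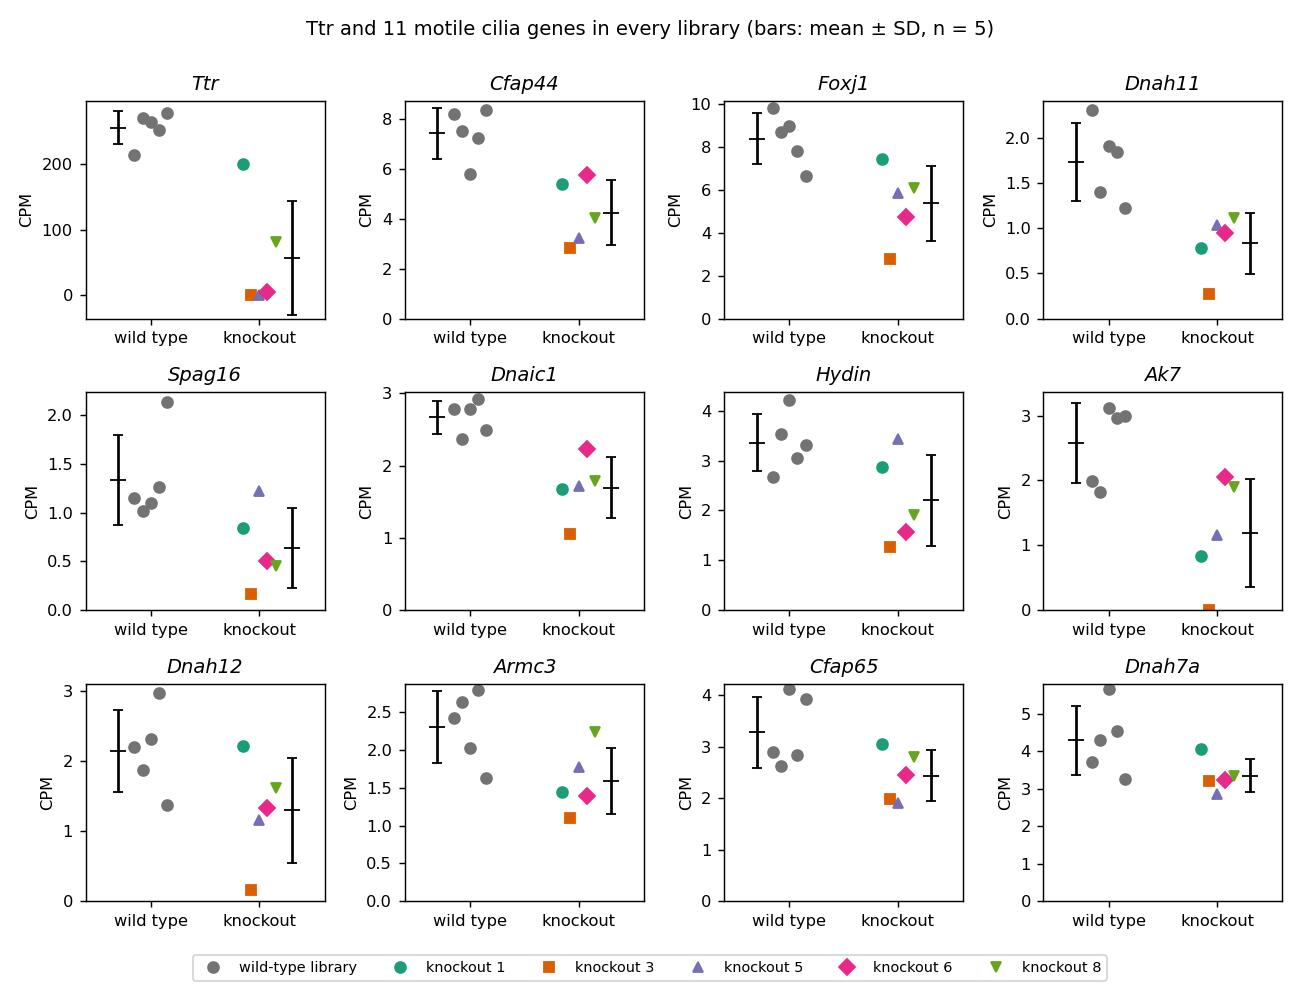
CPM (y axis) of Ttr and of the 11 motile cilia genes with the smallest p in each of the 5 wild-type libraries (grey) and 5 knockout libraries (1 symbol per replicate); bars are mean ± SD. Knockout replicate 3 is the lowest library for Cfap44, Foxj1, Dnah11, Spag16, Dnai1 (labelled Dnaic1), Hydin, Ak7, Dnah12 and Armc3, and knockout replicate 5 for Cfap65 and Dnah7a.

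Over genes with at least 20 counts, chi-square per degree of freedom between libraries ran from 5.85 to 13.9 within knockout and from 4.10 to 8.20 within wild type. By this measure knockout replicates 6 and 8 were the furthest apart and knockout replicates 3 and 6 the closest of the knockout pairs. Among the members, however, it was knockout replicate 3 that stood apart. Replicate 3 was the lowest of the 10 libraries for 23 of the 39 tested members (59.0%) and for 12.1% of all tested genes. Ccdc153, Tmem212, Ak7, Armc3 and Lrrc23 were all lowest there. In that library 26 of the 39 members lay below the wild-type range (66.7%, against 22.3% of all tested genes) and 0 above it (against 21.4%). The counts below the range were 19 in replicate 5 (48.7%, against 21.5%), 17 in replicate 6 (43.6%, against 21.2%), and 10 in each of replicates 1 and 8 (25.6%, against 19.3% and 19.4%). The list was not low as a block even in replicate 3: 13 of the 39 lay inside their wild-type ranges, among them Rsph9 (15.1 CPM), Spag6l (9.28 CPM), Ccdc39 (30.9 CPM), Rfx2 (3.86 CPM), Dnah5 (14.0 CPM) and Rsph4a (6.35 CPM), while Ak7, Tmem212, Dynlrb2 and Dnaaf1 had no counts. The genes were listed as those of ependyma; they are called motile cilia genes here, since these bulk values do not show which cells they come from. 27 members averaged under 5 CPM over all 10 libraries, of which 25 had a log2 fold change below 0 (median -0.42), and the 12 others had a median of -0.18, with 8 below 0. The 7 members that reached the filter in all wild-type libraries but in fewer knockout libraries are among the scarcer ones, which tilts that group towards lower values. The share below 0 among all tested genes of that level was not taken, so this split is no result about scarce members.

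**Figure D3:**
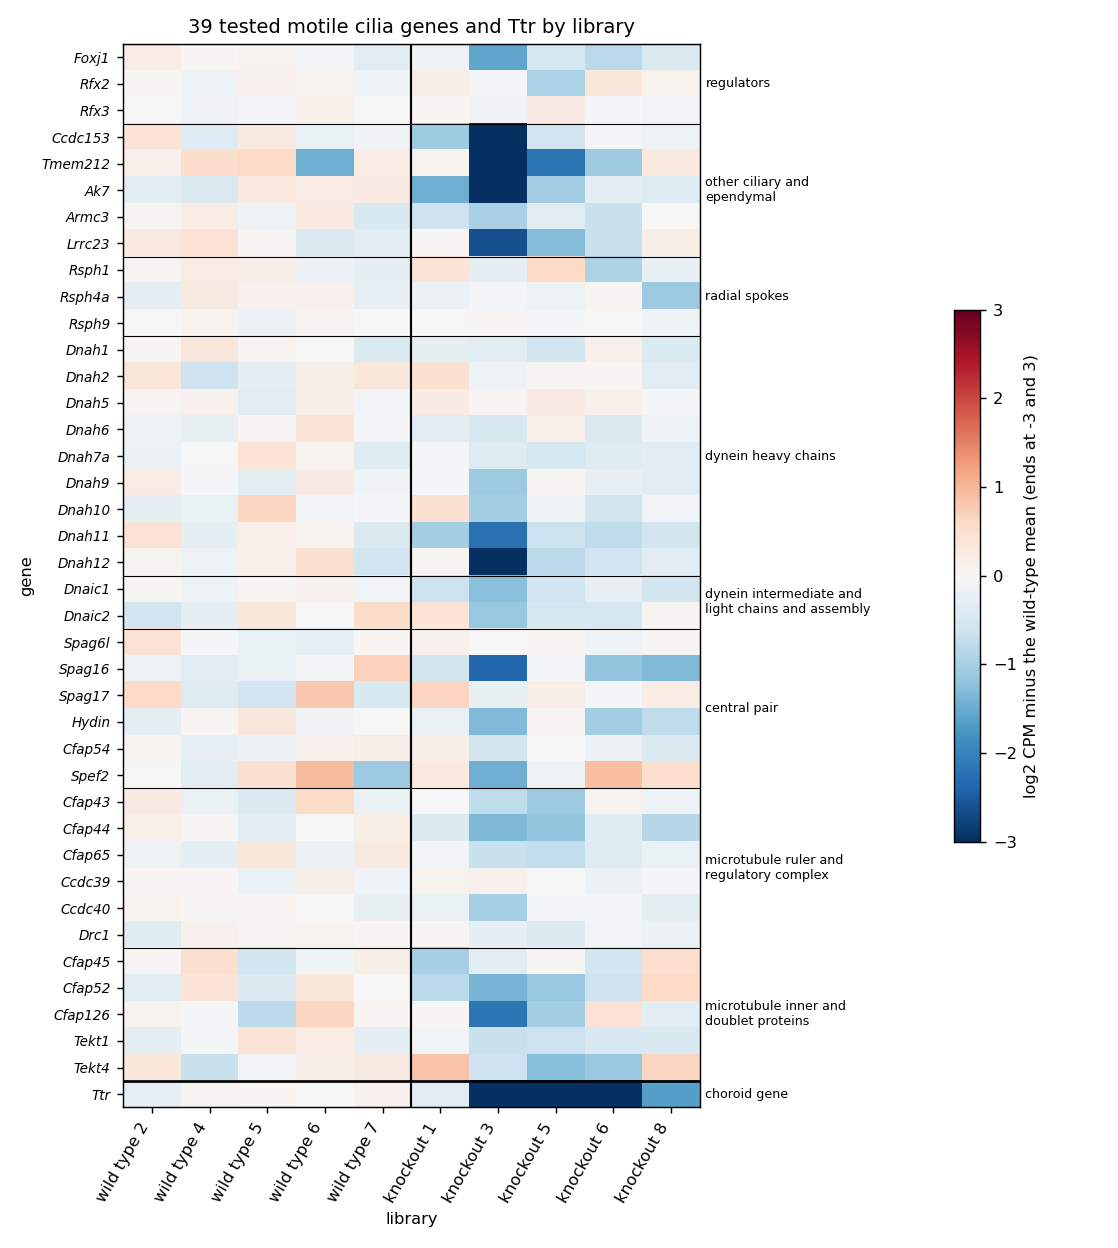
Log2 CPM minus the wild-type mean (colour, limited to -3 and 3) of the 39 tested motile cilia genes and Ttr (rows) in the 10 libraries (columns). The column of knockout replicate 3 is the darkest blue among the cilia genes, with Ccdc153, Tmem212 and Ak7 past the end of the scale, whereas Ttr is past it in knockout replicates 3, 5 and 6.

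The choroid gene Ttr, whose product is secreted into the cerebrospinal fluid, was compared with both ependymal markers and Ak7 in each knockout library. Ttr was at 213, 270, 264, 251 and 278 CPM in wild type and at 200, 0, 0.490, 5.07 and 80.6 CPM in knockout replicates 1, 3, 5, 6 and 8 (log2 fold change -2.16, SE 1.15, edgeR adjusted p = 0.681). Knockout replicate 3 was near 0 for all of them (Ttr, Tmem212 and Ak7 at 0, and Ccdc153 at 2.90% of the wild-type mean). These members were the tested members lowest in that library relative to wild type, so they do not stand for the list. There 13 of the 39 tested members lay inside their wild-type ranges, with Rsph9 at 102% and Ccdc39 at 109% of the wild-type mean. Knockout replicate 5, at 0.192% for Ttr, was at 11.6% for Tmem212, 64.3% for Ccdc153 and 45.0% for Ak7. Replicate 6 was at 1.99% for Ttr, 36.9% for Tmem212, 93.6% for Ccdc153 and 79.8% for Ak7. Replicate 8 was at 31.6% for Ttr, 111% for Tmem212, 88.1% for Ccdc153 and 73.6% for Ak7. Replicate 1 was at 78.5% for Ttr, 96.4% for Tmem212, 44.0% for Ccdc153 and 32.5% for Ak7. Tmem212 thus stood in the order of Ttr except that replicates 1 and 8 changed places, whereas Ccdc153 and Ak7 were lower in replicate 1 than in replicates 5, 6 and 8. These orders rest on few counts. Between replicates 1 and 5 they were 14 against 20 for Ccdc153 and 14 against 19 for Ak7, and between replicates 1 and 8 they were 17 against 21 for Tmem212. The exact Poisson intervals overlap in each of these pairs. They do not overlap for Ak7 between replicates 1 and 6, at 14 against 37 counts (0.458 to 1.41 against 1.45 to 2.84 CPM). The differences between these orders were not tested.

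Over the 39 tested members, the median log2 CPM relative to the wild-type mean was -0.02, -0.76, -0.42, -0.28 and -0.17 in knockout replicates 1, 3, 5, 6 and 8, and lay between -0.07 and 0.11 in the wild-type libraries. Those 5 medians stood in the same order as Ttr. The order was not tested: only 5 knockout libraries exist, and their Ttr levels fall into separate clusters. For the 21 tested genes of the choroid epithelium list the same medians were -0.10, -0.77, -0.99, -0.94 and -0.79. The choroid median lay below the cilia median in all 5, narrowly so in replicates 1 and 3. With log2 Ttr as a covariate, the median log2 fold change of the members was -0.03 and 0 were called, with 0 at an unadjusted edgeR p under 0.05. Every knockout library lay below every wild-type library in Ttr, the nearest at 200 and 213 CPM, so this covariate is partly tied to the genotype. Within knockout, log2 Ttr relative to the wild-type mean ran from -0.34 to -11.2. The lowest value, in replicate 3 with 0 counts, is set by the prior count of 2. This fit therefore cannot decide how much of the genotype difference goes with Ttr, and calls over all genes also went from 59 to 0. Without knockout replicates 3, 5 and 6 the median was -0.10, with 0 called and 3 of 41 at an unadjusted p under 0.05 (7.32%, against 6.75% of all genes in that fit); knockout was then represented by 2 libraries.

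**Figure D4:**
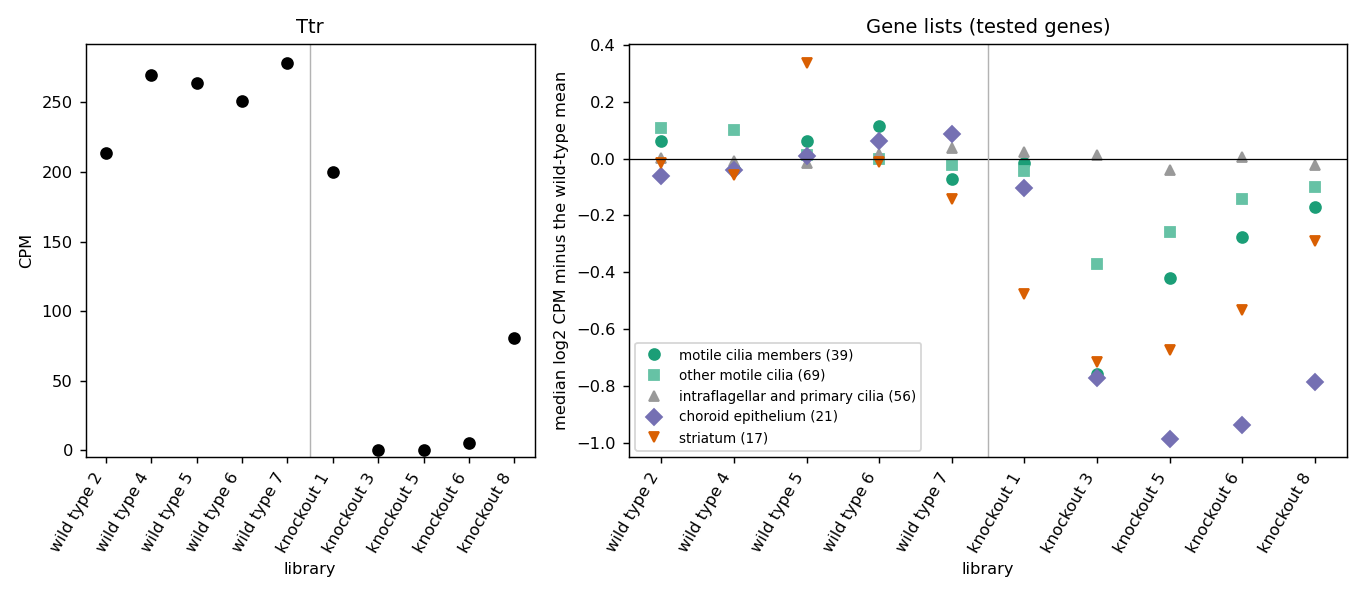
Left, Ttr in CPM by library. Right, the median log2 CPM minus the wild-type mean over the tested genes of 5 lists by library (numbers of genes in the legend). In knockout replicate 8 the choroid list is at -0.79 and the motile cilia members at -0.17, and in knockout replicate 3 they are at -0.77 and -0.76.

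Further genes of cilia and of neighbouring tissue were read from lists drawn up by function. Of 69 tested other motile cilia genes, 0 were called in either direction, with a median log2 fold change of -0.22. At an unadjusted edgeR p under 0.05, 8 had a lower value (11.6%, background 4.52%) and 0 a higher one (background 4.19%). Their smallest p were those of Pifo (-1.38, SE 0.481, adjusted p = 0.320), Mns1 (-0.76, SE 0.276), a filament protein inside doublets, and Dnali1 (-1.10, SE 0.412), a light intermediate chain of inner dynein. Knockout replicate 3 was the lowest library for 25 of the 69 (36.2%). Of 15 tested genes of multiciliogenesis, 0 were called and the list median was -0.11. E2f4 (-0.27, SE 0.0925) was lower at an unadjusted edgeR p under 0.05 (6.67% of the list, background 4.52%). Deup1, which builds the many centrioles of a multiciliated cell, was at -0.71 (SE 0.473) and E2f5 at 0.17. Of 56 genes of intraflagellar transport and the primary cilium, which cortical neurons and glia carry as well, 1 was called: Ahi1, a protein of the base of the cilium, was at 214 ± 15.7 CPM in wild type against 182 ± 12.5 CPM in knockout (SD, n = 5 each; log2 fold change -0.24, SE 0.0540, adjusted p = 0.0410). The median of that list was -0.0028, and 29 of the 56 were below 0. The next smallest p of the list were those of Pcm1 (-0.12) and Ift27 (-0.23).

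The choroid and striatal lists had lower median log2 fold changes than the members (-0.30); this difference, and their part in the result, was not tested. Of the 21 tested choroid genes 10 had a lower value at an unadjusted edgeR p under 0.05 (47.6%, background 4.52%), with a median log2 fold change of -0.65. 2 of them were called lower, Clic6 (-1.83, SE 0.321, edgeR adjusted p = 0.00989) and Tmem72 (-1.60, SE 0.298, adjusted p = 0.0193), and the third by p was Folr1 (-1.20). The 23 genes of the list summed to 547 to 653 CPM in wild type and to 557, 315, 324, 297 and 396 CPM in knockout; Ttr and Otx2 had 0 counts in replicate 3, Steap1 and Lmx1a in replicate 5, Otx2, Steap1 and Lmx1a in replicate 6, and Lmx1a in replicate 8. Of 17 striatal genes 13 had a lower value at an unadjusted edgeR p under 0.05 (76.5%) and 1 a higher one, 16 were below 0 and the median was -0.56. 2 were called lower, Six3 (-2.70) and Penk (-1.03), followed by p by Drd2 (-0.77), with sums of 544 to 706 CPM in wild type against 446 to 581 CPM in knockout, and Isl1 at 0 counts in replicates 3 and 6. Of 7 tested ependymal genes that were listed without a cilia protein, 0 were called, with 0 at an unadjusted p under 0.05; the smallest p were those of Hdc (-0.69), Rarres2 (0.26) and Prom1 (0.12), and the 8 genes summed to 314 to 364 CPM in wild type against 311 to 437 CPM in knockout. In knockout replicate 3, Hdc had 1 count and Fam216b had 0. Mia had 0 counts in 7 libraries of both genotypes, so the sum says little about the scarce genes of this list. Of 9 genes of subventricular progenitors and neuroblasts 0 were called and 0 had an unadjusted p under 0.05, led by Sox11 (-0.15), Dlx1 (-0.15) and Dcx (-0.22), with sums of 749 to 864 CPM in wild type against 611 to 911 CPM in knockout. Of 7 astrocyte genes 0 were called and all 7 were above 0. Slc1a2 (0.17), Slc1a3 (0.15) and Aldoc (0.13) were higher at an unadjusted edgeR p under 0.05 (background 4.19%). Of the 9 genes listed for cortical neurons 0 were called and 7 were above 0. At an unadjusted edgeR p under 0.05, 3 were higher (background 4.19%) and 2 lower (background 4.52%). The smallest p were those of Fezf2 (0.22) and Snap25 (0.15), both higher, and Tbr1 (-0.18), lower.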

How the data were processed

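The 10 libraries were made from total RNA of cerebral cortex. The authors deposited raw counts for each Entrez gene in 1 table. The submitters' processing notes name HISAT2, featureCounts and the build mm39. Versions, annotation, strand setting and multi-mapping: not given in the sources used here. Symbols came from a RefSeq table of GRCm38.p6, used for names; 30648 of 30935 identifiers matched, and Dnai1 and Dnai2 were matched through older symbols.

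The analysis used edgeR 4.0.16 in R 4.3.3: filterByExpr, TMM, a robust quasi-likelihood F test on genotype, two-sided p adjusted by Benjamini-Hochberg over 15488 genes, threshold 0.05. Standard errors came from the F statistic. Log2 CPM per library used a prior count of 2. The fit was tested on simulated data. Chi-square per degree of freedom between libraries of a genotype was 4.10 to 13.9 over genes with at least 20 counts, so each counted as 1 replicate. P-values measure the spread between these samples. Members and lists were chosen with earlier results of these data known. By the naming rule, values per library are given for called members, for the 12 smallest p and for the highest count of each role group, and in other lists for called genes and up to 3 smallest p; further names are examples chosen after their values were seen. Alternatives were other normalizations and filters, DESeq2 1.42.0, limma-voom (limma 3.58.1), non-robust dispersions, an adjusted p under 0.1, each library left out, a replicate block, a Ttr covariate, and a fit without knockout replicates 3, 5 and 6. Intervals for single counts are exact Poisson at 95%, and floors are 3 counts; both cover counting error only.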

Additional observations from a re-analysis of the deposited data

Results flagged for a closer look

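In 5 of 86 groups of 5 libraries (42 members and Ttr in each genotype) the highest or lowest library lay far from the other 4, and chance gives about 1 in 20. Knockout replicate 8 was lowest for Rsph4a, at 3.08 CPM against 5.81 to 6.85 CPM in the other knockout libraries, and highest for Cfap52, at 2.07 CPM against 0.442 to 0.836 CPM. Wild-type replicate 5 was highest for Dnah10, at 4.46 CPM against 2.31 to 2.70 CPM in the other wild-type libraries. Wild-type replicate 7 was highest for Spag16, at 2.14 CPM against 1.02 to 1.26 CPM. Wild-type replicate 2 was lowest for Drc1, at 14.1 CPM against 19.1 to 19.9 CPM.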

How the results depend on the processing

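The count of 1 member lower in the knockout was 3 with no filter on low counts (Foxj1, Cfap44 and Ak7) and 0 with at least 50 counts in 5 libraries (19 members tested), non-robust dispersions, the replicate block, log2 Ttr as a covariate, or without knockout replicates 3, 5 and 6. It ran from 0 to 1 in the fits that left out 1 library, and was 0 without wild-type replicate 2, 4, 5, 6 or 7 or knockout replicate 3 or 5. With RLE or upper-quartile factors, DESeq2, limma-voom or an adjusted p under 0.1 it was 1. Over all 21 alternatives 0 members were called higher. The median of -0.30 stayed below 0 in all 20 alternatives that give one, was -0.034 with the Ttr covariate, and ran from -0.46 to -0.26 in the fits that left out 1 library. Genotypes share only replicate numbers 5 and 6, which do not pair the mice in the labels (correlation of deviations -0.03 and -0.06). The fit with the replicate block therefore takes the genotype difference from replicates 5 and 6 alone, and knockout replicates 5 and 6 are among those low in Ttr (0.490 and 5.07 CPM). In that fit Cfap44 was at -0.57 (adjusted p = 0.9996), Ttr at -6.58 passed the threshold, and 27 genes were called in all against 59. With so few libraries it can decide neither gene. That total was 0 with the Ttr covariate (865 at an unadjusted edgeR p under 0.05), 12 without knockout replicates 3, 5 and 6, 171 with no filter, 124 with DESeq2, 108 at an adjusted p under 0.1, and 15 to 182 without 1 library (wild-type replicates 2, 4 and 5 left out gave 15, 21 and 17, knockout replicates 3, 6 and 8 gave 17, 37 and 182). Of 372 values of 18 named members and Ttr under the alternatives, 16 changed sign. With the Ttr covariate these were Dnah12 (0.16), Ccdc39 (-0.034) and Ttr itself (0.027), which the covariate removes by construction. With the replicate block they were Ccdc39 (-0.067) and Rsph9 (0.033). Ccdc39 was also at -0.0057 with upper-quartile factors, -0.0025 with the stricter filter, -0.0037 with limma-voom and from -0.043 to 0.051 without 1 library, and Rfx3 at -0.0090 without knockout replicates 3, 5 and 6 and from -0.046 to 0.058 without 1 library. 1 CPM is about 18 counts, so folds of members under 2 CPM are imprecise.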
